A study of Homo sapiens with 12 samples.

Results

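The 10 canonical target genes of the transcriptional coactivators YAP and TAZ described here were followed in RCC4 cells after silencing of TAZ. They were CCN1 (formerly CYR61), CCN2 (formerly CTGF), ANKRD1, AMOTL2, F3, FJX1, AXL, NT5E, MYOF and CRIM1, and every probe set of each was read. The 10 are a part of the published YAP/TAZ signature, chosen with earlier results of these data known. They do not stand for the whole signature, of which 9 other genes were measured and are given further below. The 10 genes are covered by 15 probe sets, out of 11963 genes and 19064 probe sets that could be tested. Of the 10 genes, 6 have 1 probe set, 3 have 2 and 1 has 3.

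RCC4 is an established cell line from a human clear cell renal carcinoma and lacks functional VHL, the ubiquitin ligase subunit that marks hypoxia-inducible factors for degradation. The cells were grown in medium with serum and received either a non-targeting siRNA (siNT) or siRNA against TAZ (siTAZ) for 2 days. The protein TAZ is the product of WWTR1 and not tafazzin. They were then kept for 7 hours in vehicle (DMSO) or in 1 µM erastin, an inhibitor of the cystine/glutamate antiporter that lowers glutathione and can trigger ferroptosis, in which peroxidised membrane lipids kill the cell. The 4 groups were therefore siNT with vehicle, siNT with erastin, siTAZ with vehicle and siTAZ with erastin, with 3 arrays in each and 12 in all. All cells in all groups were transfected, and all come from 1 line; the number of siRNA sequences against WWTR1 is not stated in the labels. The submitters describe biological triplicates. RNA was read on Affymetrix 3′ expression arrays, and every level given is a log2 signal, and every change a difference of log2 signals.

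YAP and TAZ carry no DNA-binding domain of their own. When the Hippo kinases LATS1 and LATS2 are inactive, both enter the nucleus and bind the TEAD transcription factors, and genes near TEAD sites are transcribed. The pathway is known for sensing cell density, adhesion and tension, and its usual readouts are secreted matrix-associated proteins, membrane proteins and scaffold proteins. CCN1, CCN2 and ANKRD1 are the targets most often measured to report it.

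The stretch before the transcription start is where a TEAD site would lie closest to the gene, so the 250 bases upstream of each annotated start were read in RefSeq (GRCh38.p14). Windows of 8 of the 10 genes were read (not CCN1 and CRIM1), 10 in all because AMOTL2 and AXL each have 2 starts. The core letters of a TEAD site are GGAATG, or CATTCC on the other strand. CCN2 held 3 such matches and ANKRD1 held 2, in their only windows, and AMOTL2 and AXL held 1 each, at their second starts. A window with at least 1 match is not rare, at 11.9% of all 35116 windows of this length, while 0.94% held at least 2 and 0.0826% held at least 3. An AP-1 site (TGANTCA, which reads the same on both strands) was found in ANKRD1 (1 match) and F3 (2 matches); 6.57% of all windows held at least 1 and 0.402% at least 2. The CArG box, the site of the serum response factor SRF, was found in 0 of these windows, against 1.16% of all. A match is a string of letters and not a shown site. The windows of 4 genes are printed because they span the range of responses below: CCN2 (chr6:131951373-131951622, minus strand), ANKRD1 (chr10:90921088-90921337, minus strand), F3 (chr1:94541760-94542009, minus strand) and NT5E (chr6:85449833-85450082, plus strand). Capitals mark the TEAD and AP-1 letters.
CCN2: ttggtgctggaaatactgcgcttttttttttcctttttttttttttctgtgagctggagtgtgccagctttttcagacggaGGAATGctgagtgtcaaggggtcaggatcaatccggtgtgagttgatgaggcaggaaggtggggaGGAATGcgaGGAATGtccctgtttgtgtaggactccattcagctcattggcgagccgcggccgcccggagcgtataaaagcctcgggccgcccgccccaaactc
ANKRD1: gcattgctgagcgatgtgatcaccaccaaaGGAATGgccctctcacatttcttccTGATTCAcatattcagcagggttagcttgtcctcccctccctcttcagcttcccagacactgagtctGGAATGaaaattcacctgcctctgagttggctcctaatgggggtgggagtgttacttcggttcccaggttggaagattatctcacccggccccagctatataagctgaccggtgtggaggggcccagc
F3: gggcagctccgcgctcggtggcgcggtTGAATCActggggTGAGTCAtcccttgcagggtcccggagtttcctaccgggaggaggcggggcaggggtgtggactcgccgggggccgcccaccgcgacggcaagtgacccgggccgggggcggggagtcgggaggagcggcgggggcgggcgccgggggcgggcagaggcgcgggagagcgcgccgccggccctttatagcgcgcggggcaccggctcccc
NT5E: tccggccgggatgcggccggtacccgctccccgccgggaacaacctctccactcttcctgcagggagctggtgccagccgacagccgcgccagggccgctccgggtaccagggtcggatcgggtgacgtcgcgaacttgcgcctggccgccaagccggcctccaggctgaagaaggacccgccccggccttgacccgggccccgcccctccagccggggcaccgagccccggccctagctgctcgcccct
Counted in bases from the start, the matches of CCN2 began at -169, -104 and -95. Those of ANKRD1 began at -220 and -128 for TEAD and at -195 for AP-1. The AP-1 letters of F3 began at -223 and -210, and the window held no TEAD core. The NT5E window held neither.

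WWTR1 fell in both siTAZ groups. The brightest probe set of WWTR1 averaged 12.29 ± 0.05 (SD, n = 3) in siNT with vehicle and 12.27 ± 0.08 (n = 3) in siNT with erastin, and 9.34 ± 0.11 and 9.15 ± 0.09 in the siTAZ groups. The fall was 7.69-fold in vehicle and 8.71-fold under erastin (log2 fold changes of -2.94 and -3.12, adjusted p = 3.28e-10 and 1.63e-10, limma), and all 3 of its probe sets fell. The 6 siTAZ arrays lay below all 6 siNT arrays. YAP1, the paralogue of TAZ, did not pass, with log2 fold changes of -0.02 in vehicle (95% interval -0.17 to 0.13) and -0.01 under erastin (-0.16 to 0.14; limma adjusted p = 0.903 and 0.943). Array medians were 6.48 to 6.54 and arrays of 1 group correlated at 0.9955 to 0.9985. Renal markers stood at a mean of 10.7 to 10.8 in every group (7 of the 10 listed were measured, among them PAX8 at 10.6 and PAX2 at 8.20), while leukocyte markers stood at 3.88 to 4.16, endothelial markers at 4.30 to 4.61, fibroblast markers at 4.75 to 5.14 and erythroid markers at 5.50 to 5.79. Single renal markers moved in both directions after siTAZ. Of the 7, 1 fell and 2 rose in vehicle (28.6% of all genes were called), and 2 fell and 3 rose under erastin (28.2%). The control probe sets for the 3′ and the 5′ end of actin, whose difference rises as RNA is degraded or copied incompletely, differed by 2.68 ± 0.28 in siNT with vehicle, 2.26 ± 0.69 in siNT with erastin, 2.65 ± 0.04 in siTAZ with vehicle and 3.25 ± 0.33 in siTAZ with erastin (SD, n = 3). Under erastin its mean was thus higher in siTAZ than in siNT.

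After siTAZ in vehicle, 6 of the 10 target genes fell and 1 rose at an adjusted p under 0.05; the other 3 did not pass. Over all genes tested, 13.9% fell and 14.7% rose in that comparison, 28.6% together. Under erastin the counts were again 6 and 1, over a background of 12.6% fallen and 15.6% risen, 28.2% together. The 6 that fell were CCN1, CCN2, ANKRD1, F3, FJX1 and AXL in both comparisons, and NT5E rose in both; 9.56% of all genes fell in both and 11.7% rose in both. The median change of the 10 was -0.28 in vehicle and -0.32 under erastin, where the medians over all genes were -0.01 and 0.01. The 2 comparisons use different arrays but come from 1 fit with a shared estimate of the spread, so they are not fully independent. RNA was taken from whole cultures, so fewer cells making a transcript and less transcript per cell cannot be told apart.

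**Figure D1:**
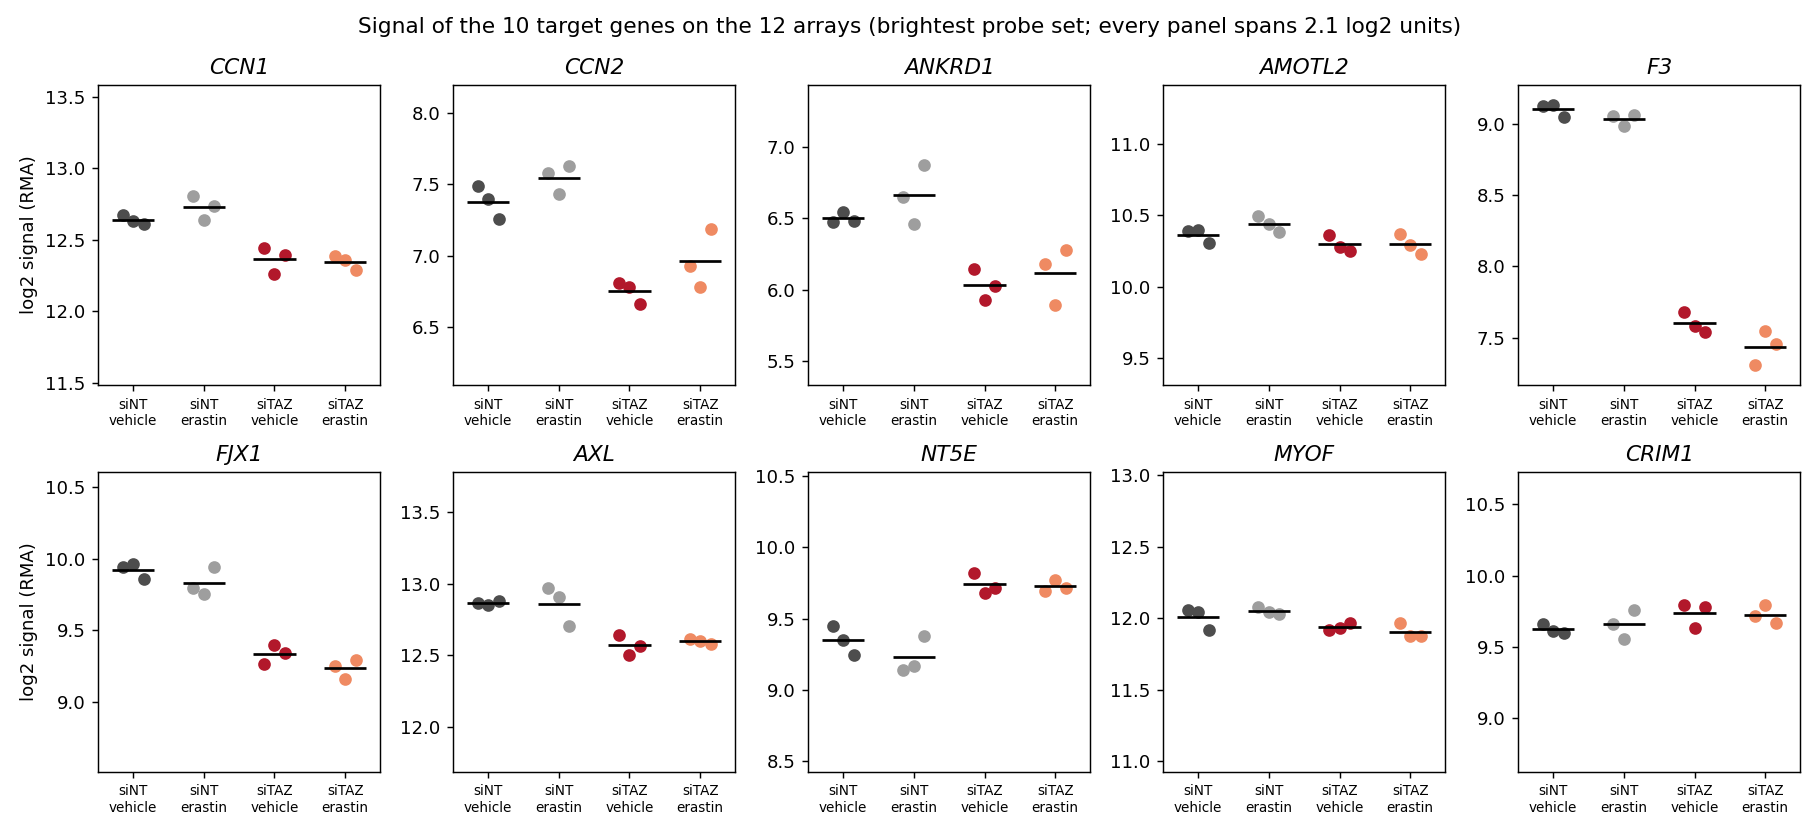
Log2 signal of the 10 target genes on each of the 12 arrays; each panel is 1 gene at its brightest probe set, the x axis gives the 4 groups, points are arrays, and every panel spans the same number of log2 units. F3, with siNT arrays at 8.98 to 9.13 and siTAZ arrays at 7.31 to 7.68, shows the widest gap, and NT5E is the gene whose siTAZ arrays lie above.

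CCN1 and CCN2 are the secreted matricellular members, which bind integrins and matrix. CCN2 read 7.49, 7.39 and 7.25 on the siNT vehicle arrays and 6.81, 6.78 and 6.66 on the siTAZ vehicle arrays. Under erastin it read 7.58, 7.43 and 7.62 in siNT and 6.93, 6.78 and 7.19 in siTAZ. All 6 siTAZ arrays lay below the lowest siNT array, though the third siTAZ erastin array, at 7.19, came close to the lowest siNT array, at 7.25. CCN2 fell by 0.63 ± 0.10 (SE; 1.55-fold) in vehicle and by 0.58 ± 0.10 under erastin, with limma adjusted p = 0.000428 and 0.000785. With the actin difference as a covariate the fall under erastin was 0.41 ± 0.13 and only just passed (adjusted p = 0.0438, limma). CCN1, at its brightest probe set, read 12.67, 12.63 and 12.61 in siNT with vehicle and 12.44, 12.26 and 12.39 in siTAZ with vehicle. Under erastin it read 12.81, 12.63 and 12.73 against 12.39, 12.36 and 12.28. Again no siTAZ array reached the siNT range. The fall was 0.27 ± 0.06 in vehicle (adjusted p = 0.00626, limma) and 0.38 ± 0.06 under erastin (adjusted p = 0.000684). The second probe set of CCN1 fell further, by 0.53 ± 0.07 and 0.67 ± 0.07. The brighter probe set exceeded the second by 0.68 to 0.97 on the 6 siNT arrays and by 0.96 to 1.21 on the 6 siTAZ arrays, so for CCN1 the size of the fall depends on which is read.

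ANKRD1 encodes an ankyrin repeat protein of the nucleus and the muscle sarcomere. It read 6.48, 6.55 and 6.48 in siNT with vehicle and 6.14, 5.93 and 6.03 in siTAZ with vehicle. Under erastin the arrays read 6.65, 6.46 and 6.87 in siNT and 6.18, 5.89 and 6.28 in siTAZ. The groups did not overlap in either comparison, but the erastin arrays spread wider. ANKRD1 had the largest within-group SD of the 10, at 0.15, against a median of 0.10 over all genes. It fell by 0.47 ± 0.11 (1.39-fold, adjusted p = 0.00678, limma) and by 0.54 ± 0.11 (1.46-fold, adjusted p = 0.00296). With the actin difference as a covariate the fall under erastin was 0.29 ± 0.13 and no longer passed (adjusted p = 0.14, limma), while in vehicle it was 0.48 and did (adjusted p = 0.00189). What the actin difference contributes was not tested beyond this.

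F3 encodes tissue factor, the membrane receptor of factor VII that starts blood coagulation. It was read at 9.12, 9.13 and 9.05 in siNT with vehicle and at 7.68, 7.58 and 7.54 in siTAZ with vehicle. With erastin the readings were 9.05, 8.98 and 9.06 in siNT and 7.31, 7.55 and 7.46 in siTAZ. The lowest siNT array, at 8.98, stood above the highest siTAZ array, at 7.68, by more than for any other of the 10. F3 fell 2.82-fold in vehicle and 3.02-fold under erastin (log2 fold changes of -1.50 ± 0.07 and -1.59 ± 0.07, adjusted p = 3.56e-08 and 2.27e-08, limma). Its change in vehicle exceeded that of 99.8% of all genes in size.

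FJX1 is the human counterpart of Drosophila four-jointed, a Golgi kinase that acts on the atypical cadherins of the Fat and Dachsous pathway. Its arrays read 9.94, 9.96 and 9.86 in siNT with vehicle against 9.26, 9.39 and 9.34 in siTAZ with vehicle. The erastin arrays read 9.79, 9.75 and 9.94 against 9.25, 9.16 and 9.29. No siTAZ array overlapped a siNT array. FJX1 fell by 0.59 ± 0.07 in vehicle (adjusted p = 2.77e-05, limma) and by 0.59 ± 0.07 under erastin (1.51-fold, adjusted p = 2.72e-05).

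AXL is a receptor tyrosine kinase of the TAM family, whose ligand is GAS6. It read 12.87, 12.85 and 12.88 in siNT with vehicle and 12.64, 12.50 and 12.57 in siTAZ with vehicle. Under erastin the arrays read 12.97, 12.90 and 12.70 in siNT and 12.61, 12.60 and 12.58 in siTAZ. No siTAZ array reached the lowest siNT array. AXL fell by 0.30 ± 0.07 (1.23-fold, adjusted p = 0.00528, limma) and by 0.26 ± 0.07 (1.20-fold, adjusted p = 0.0115). The siNT erastin arrays differed among themselves by more than the vehicle arrays, and without the first of them the fall under erastin was 0.21 and did not pass (adjusted p = 0.0505, limma). Fitted on those groups alone the call was also lost (adjusted p = 0.0547). With the actin difference as a covariate the fall was 0.40 and passed (adjusted p = 0.00364). The second AXL probe set fell by 0.30 in vehicle and by 0.20 under erastin (adjusted p = 0.00438 and 0.0421, limma).

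NT5E encodes the ecto-nucleotidase that makes adenosine from AMP at the cell surface, and it was the member that moved the other way. Its arrays read 9.45, 9.35 and 9.24 in siNT with vehicle and 9.82, 9.68 and 9.72 in siTAZ with vehicle. With erastin they read 9.14, 9.17 and 9.38 and 9.70, 9.77 and 9.71. Every siTAZ array was above every siNT array. NT5E rose by 0.39 ± 0.07 (1.31-fold, adjusted p = 0.00163, limma) and by 0.50 ± 0.07 (1.41-fold, adjusted p = 0.000313).

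**Figure D2:**
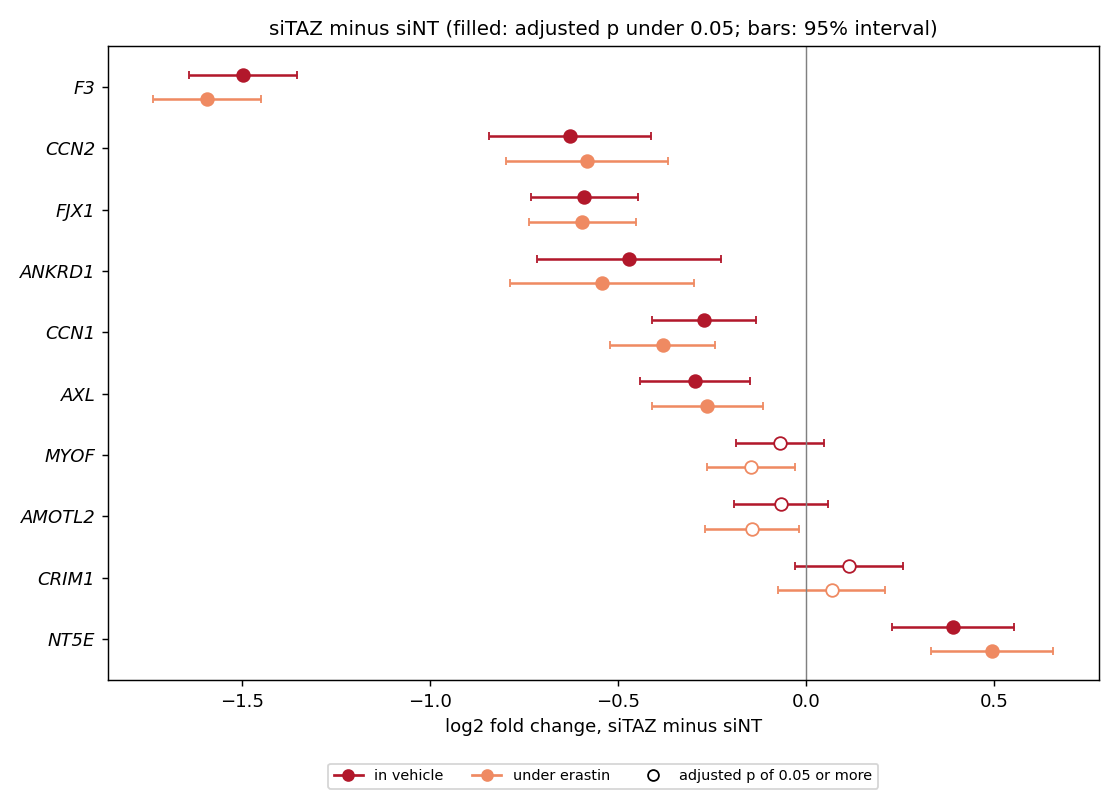
Log2 fold change of the 10 target genes after siTAZ (siTAZ minus siNT) in vehicle and under erastin, with bars for the 95% interval of the limma fit. The 6 that fell run from F3 at -1.50 and -1.59 to CCN1 at -0.27 in vehicle and AXL at -0.26 under erastin, NT5E lies at 0.39 and 0.50, and AMOTL2, MYOF and CRIM1 lie close to 0.

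The remaining 3 did not pass in either comparison. AMOTL2, an angiomotin-family scaffold of cell junctions that binds YAP and TAZ and holds them out of the nucleus, had a log2 fold change of -0.07 in vehicle (95% interval -0.19 to 0.06, adjusted p = 0.461, limma) and of -0.14 under erastin (-0.27 to -0.02, adjusted p = 0.0859). Its arrays ran from 10.23 to 10.49 over all 4 groups. MYOF, or myoferlin, a ferlin of membrane fusion and repair, had values of -0.07 (interval -0.18 to 0.05, adjusted p = 0.417) and -0.15 (-0.26 to -0.03, adjusted p = 0.0643, limma). For both genes the 3 siTAZ erastin arrays lay below the 3 siNT erastin arrays, without overlap. Under erastin the arrays of siTAZ and siNT separated in this way, in either direction, for 9 of the 10 targets and 38.8% of all genes, and in vehicle for 7 of the 10 and 43.8% of all genes. CRIM1, a transmembrane protein with cysteine-rich repeats that binds BMPs, had values of 0.12 (interval -0.03 to 0.26, adjusted p = 0.239) and 0.07 (-0.07 to 0.21, adjusted p = 0.518). The lowest bound of these 6 intervals was -0.27, for AMOTL2 under erastin, and the highest was 0.26, for CRIM1 in vehicle.

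MYOF has 3 probe sets that differed. The brightest gave the values above. The second gave -0.20 in vehicle (adjusted p = 0.237) and fell by 0.37 under erastin (adjusted p = 0.0297, limma, over all probe sets). The dimmest read 0.06 and 0.12 higher in siTAZ without passing. The 2 CRIM1 probe sets differed less, with the second at 0.07 and 0.01.

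**Figure D3:**
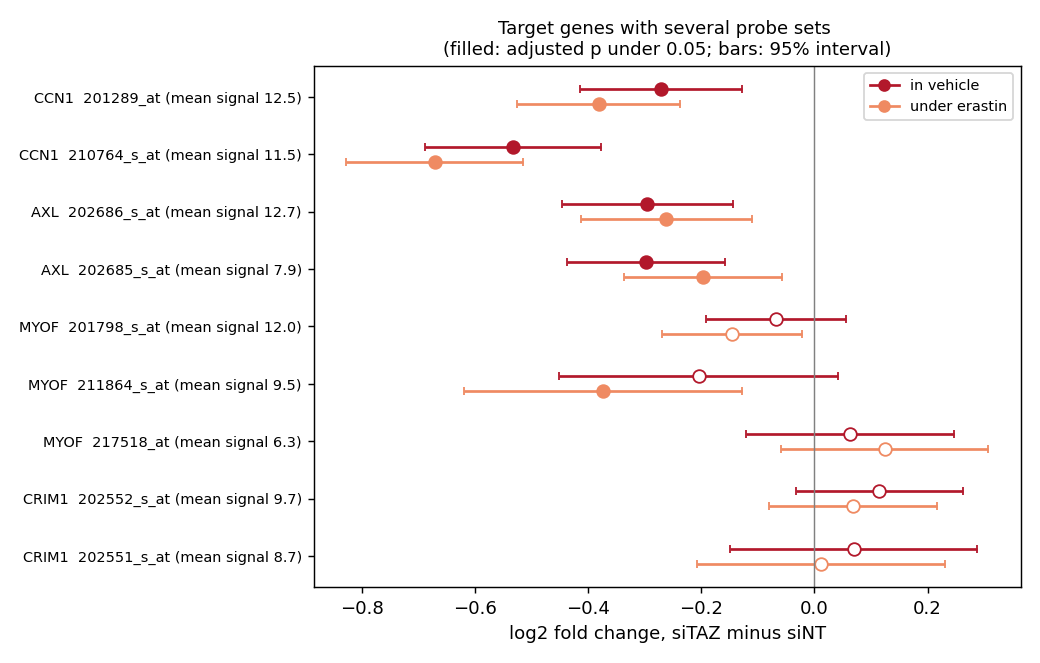
Log2 fold change (siTAZ minus siNT) for each probe set of the 4 target genes with several, with 95% intervals; filled points passed the adjusted p threshold of 0.05. Both CCN1 probe sets and both AXL probe sets fell in both comparisons, and of the 3 for MYOF the second fell under erastin.

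Taking vehicle and erastin arrays together gave 6 siTAZ against 6 siNT arrays for each gene. In the limma fit 7 of the 10 fell and 1 rose, over 17.9% and 19.9% of all genes, 37.9% together; the seventh was MYOF (-0.11, adjusted p = 0.043), whose call was lost in 14 of its 22 alternatives. An exact permutation test within vehicle and within erastin arrays (400 arrangements, two-sided; 11 genes were tested) gave p = 0.005, the smallest it can give, for CCN1, CCN2, ANKRD1, F3, FJX1, AXL, NT5E and WWTR1. In each of these 8, 6 of 6 siTAZ arrays lay beyond all siNT arrays. The share of all genes that separate in this way, or reach this p, was not computed. How unusual these 8 are can therefore not be told. Within the single comparisons, of 3 arrays against 3, the arrays separated for 43.8% of all genes in vehicle and 38.8% under erastin. Separation of that kind is common here. The same exact permutation test gave p = 0.015 for AMOTL2 and MYOF and 0.065 for CRIM1.

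After 7 hours of erastin 0 of the 10 target genes passed at this threshold (limma), in siNT or in siTAZ cells. The background was low too: 0.802% of all genes were called in siNT and 0.56% in siTAZ. At an unadjusted p under 0.05, 0 of the 10 passed in siNT and 1 in siTAZ, F3 at -0.16, where 10.4% and 10.2% of all genes did. Changes ran from -0.12 for NT5E to 0.17 for CCN2 in siNT, and from -0.16 for F3 to 0.21 for CCN2 in siTAZ. CCN2 read higher with erastin in both backgrounds, by 0.17 (95% interval -0.05 to 0.38) and 0.21 (-0.0022 to 0.43), without passing (adjusted p = 0.63 and 0.493, limma). At the brightest probe set, the erastin and vehicle arrays separated without overlap for 0 of the 10, against 14.4% of all genes in siNT and 20.7% in siTAZ. Over all 15 probe sets they separated for 2 in siNT and 1 in siTAZ, against 13% and 19.7% of all probe sets. These were the second probe set of CCN1 in siNT (0.19, interval 0.04 to 0.35) and the dimmest of MYOF in siNT (0.15, interval -0.03 to 0.34) and in siTAZ (0.21, interval 0.03 to 0.40), all higher with erastin. None of these 3 results passed (limma adjusted p = 0.437, 0.674 and 0.501).

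**Figure D4:**
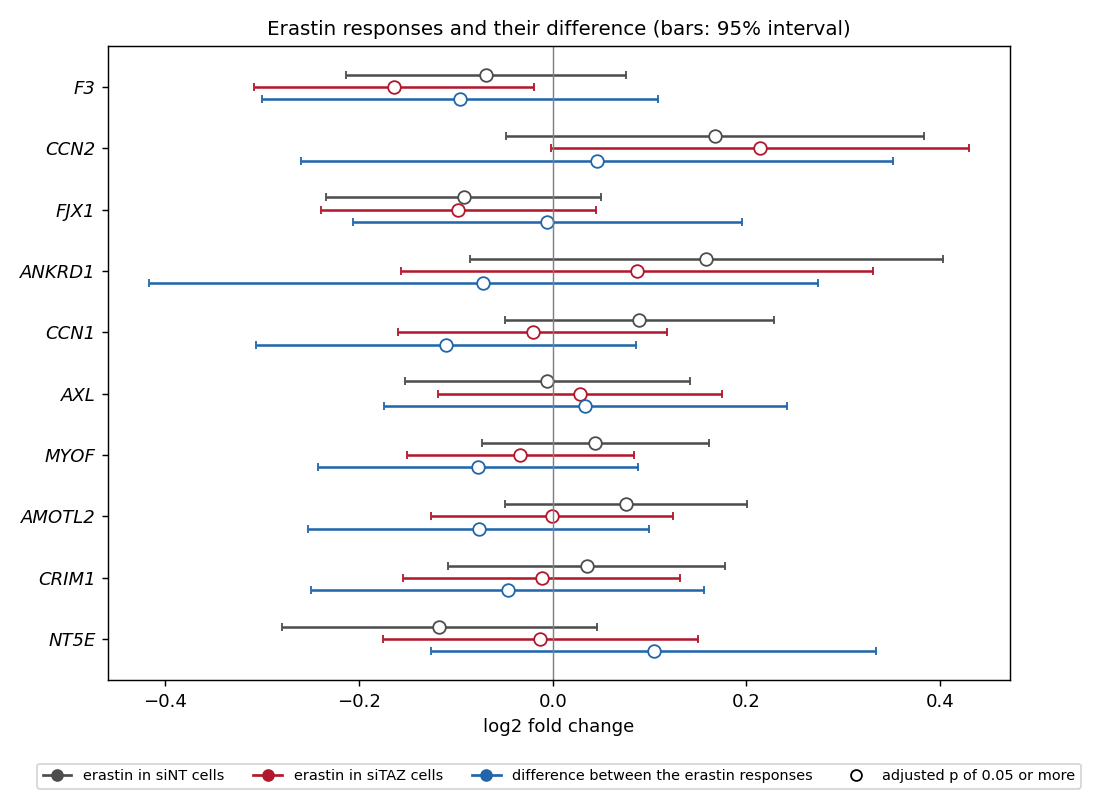
Log2 fold change of the 10 target genes with erastin (erastin minus vehicle) in siNT and in siTAZ cells, and the difference between the 2 (interaction), with 95% intervals. Changes lie between -0.16 and 0.21 and the unadjusted interval of F3 in siTAZ excludes 0, while the others include it.

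The response to siTAZ was compared between vehicle and erastin with the interaction term. No gene in the table passed with limma (0% of 11963 genes), and the smallest adjusted p of a target was 0.825. At an unadjusted p under 0.05 there were 764 genes, or 6.39%, and 0 of the 10 targets. Over the alternatives at most 10 genes passed, with limma's trend and robust options. Leaving out the genes under the 50th percentile of signal gave 8, and under the 25th percentile 3. A second quantile normalisation and array weights gave 3 each, and leaving out the third siNT erastin array gave 1. The other alternatives gave 0. The targets that passed numbered 0 in every alternative. Over the 10 interactions the lowest interval bound was -0.42, for ANKRD1, and the highest was 0.35, for CCN2. Other intervals were narrower, and that of MYOF ran from -0.24 to 0.09. With 3 arrays a group, a difference between the settings that lies within a gene's own interval cannot be told from none.

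Other genes were read beside these, from lists of the pathway and its neighbours. Of the other signature genes 9 were measured (LATS2, CCDC80 and NUAK2 were not analysed here). Among them 0 fell and 1 rose in each comparison. Over all genes 13.9% fell and 14.7% rose in vehicle, and 12.6% fell and 15.6% rose under erastin. DOCK5, a guanine nucleotide exchange factor for Rac, rose by 0.28 in both (adjusted p = 0.0468 and 0.0458, limma), but it was dim, at a mean of 5.06, and stayed called in only 11 of 22 and 8 of 22 alternatives. IGFBP3 gave 0.05 and -0.02 and GADD45A 0.06 and -0.12, without passing. Medians of these 9 were 0.05 and -0.06.

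Of the coactivators and TEAD factors, 6 of 7 were measured. Apart from WWTR1, 3 rose in vehicle and 4 under erastin, against 14.7% and 15.6% of all genes. TEAD1 rose by 0.59 and 0.73, VGLL4, a cofactor that competes with YAP and TAZ for TEAD, by 0.37 and 0.32, and TEAD4 by 0.21 and 0.19; TEAD3 read 0.03 higher in vehicle without passing and rose by 0.20 under erastin. The count under erastin was 2 with median-centred arrays, after a second quantile normalisation, with the actin covariate, with only the groups compared, and without the third siNT erastin array or the second siTAZ erastin array; TEAD1 and VGLL4 passed in all 23 alternatives other than the fold threshold. TEAD4 passed in 21 of 23 in vehicle, losing its call without the first siNT vehicle array or the third siTAZ vehicle array, and in 16 of 23 under erastin, where it was also lost without the third siTAZ erastin array. TEAD3 passed in 12 of 22 under erastin; among the arrays left out, its call was lost without the second siNT erastin, the third siNT erastin, the first siTAZ erastin or the second siTAZ erastin array.

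Of 9 measured genes from other reports of YAP/TAZ activity, 4 fell and 2 rose in vehicle, and 5 fell and 1 rose under erastin. The shares of all genes were 13.9% fallen and 14.7% risen in vehicle, and 12.6% and 15.6% under erastin. TGM2, tissue transglutaminase, fell by 1.18 and 1.22 (by 0.80 under erastin with the mean of its probe sets), and EDN1, the vasoconstrictor endothelin, fell by 0.83 in each. DLC1 fell by 0.35 and 0.69, and CCND1, cyclin D1, fell by 0.21 and 0.23. MYC gave 0.01 in vehicle and fell by 0.24 under erastin. That fall passed in 19 of 23 alternatives, and the smallest change among them was -0.09. The 2 that rose in vehicle were ARHGAP29, by 0.31, and INHBA, by 0.19. Under erastin INHBA rose by 0.18, while ARHGAP29, at 0.17, did not pass. INHBA stayed called in 17 of 23 alternatives in vehicle and in 12 of 23 under erastin. The counts of risen genes changed between 1 and 3 in vehicle and between 0 and 3 under erastin over the alternatives, and the fallen ones stayed at 3 to 4 and 4 to 6. CCND1 in vehicle lost its call without the first siNT vehicle array (adjusted p = 0.0627).

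Because CCN1 and CCN2 are also known to respond to SRF and to serum, SRF targets and immediate early genes were counted. Beside both lists, 13.9% of all genes fell and 14.7% rose in vehicle, and 12.6% fell and 15.6% rose under erastin. Of 13 measured SRF and MRTF genes, 1 fell and 6 rose in vehicle and 2 fell and 5 rose under erastin; with the actin covariate 3 rose there. FILIP1L rose by 1.42 and 1.33, MYL9, a myosin light chain, by 0.67 and 0.81, and ACTA2, smooth muscle actin, by 0.79 and 0.72. The gene SRF itself fell by 0.40 and 0.28. With the mean of all probe sets, SRF fell by 0.19 in vehicle and gave -0.13 under erastin without passing (limma adjusted p = 0.119), and ACTA2 rose by 0.36 and 0.38. Of 15 measured immediate early genes, 4 fell and 5 rose in vehicle (2 rose with the mean of all probe sets) and 4 fell and 2 rose under erastin (1 to 3 over the alternatives). EGR1 rose by 0.79 and 0.42 and KLF4 fell by 0.81 and 0.98, both transcription factors; with the mean of all probe sets EGR1 rose by 0.25 under erastin and KLF4 fell by 0.53 and 0.61.

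**Figure D5:**
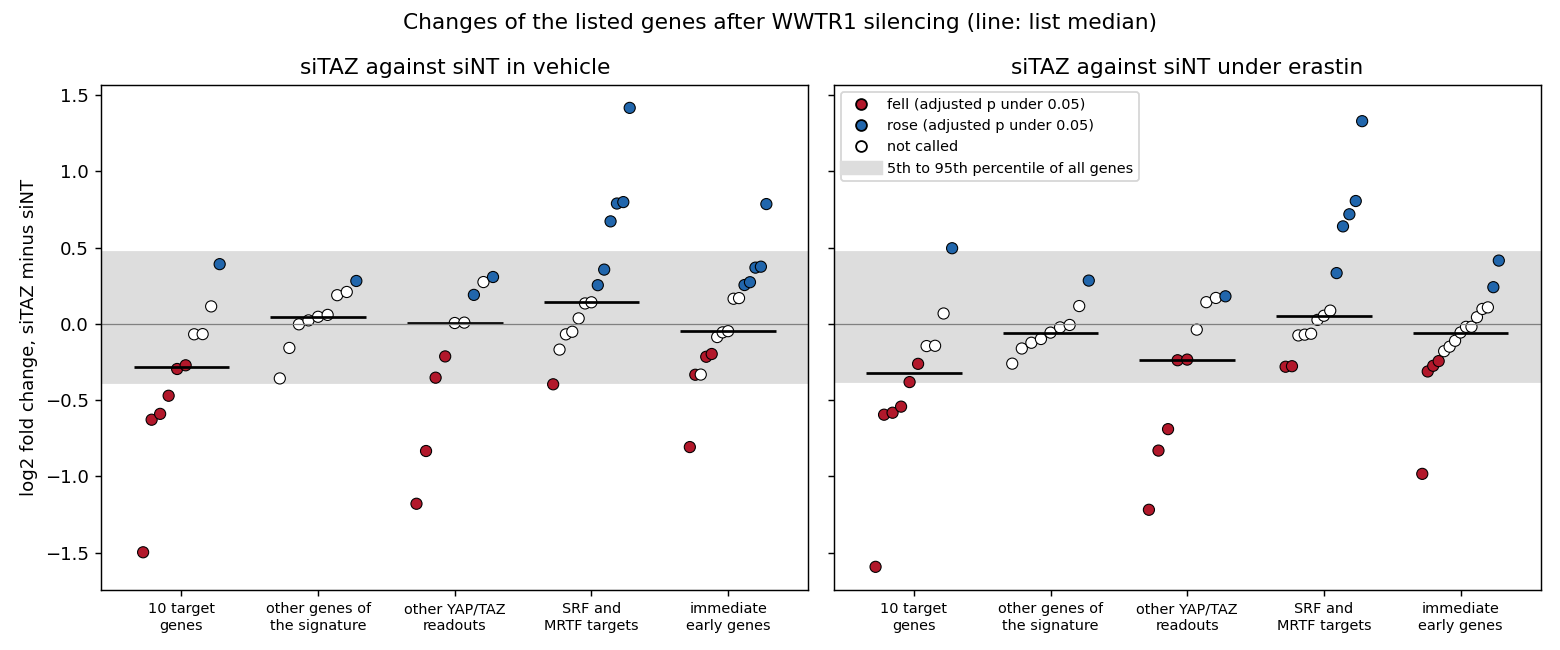
Log2 fold change (siTAZ minus siNT) of each measured gene of the 5 lists in vehicle and under erastin; points are genes and the line is the median of the list. The other readouts reach -1.22 at TGM2 and the SRF and MRTF genes reach 1.42 at FILIP1L.

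The genes closest to 4 of the targets were found by the distance between their 3 group means relative to siNT with vehicle, on the log2 scale, among the 5980 or 5981 genes above the median signal. For F3 they were SLC39A6 (distance 0.0464), NXPE3 (0.108) and STX2 (0.132), and for CCN2 they were SGPL1 (0.0892), NPM3 (0.0898) and RBCK1 (0.1002). For CCN1 they were RAB22A (0.011), PTGES2 (0.025) and IFT81 (0.0288), and for NT5E they were BNC2 (0.0412), HOMER1 (0.0418) and ASRGL1 (0.0432). CCN2 and ANKRD1, at means of 7.16 and 6.33, lay below the median signal, so neither could be found in this search. None of the targets that were searched was among the 3 closest of any of these 4. So few places among so many genes would seldom hold a given gene, so nothing is read from this.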

How the data were processed

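RNA from 12 RCC4 cultures, 3 in each of 4 groups, was read on Affymetrix 3′ arrays. The authors deposited log2 signals; the submitters' processing notes name RMA and Affymetrix Expression Console, with versions and genome build not given in the sources used here. Per the series text, genes were further transformed against the siNT mean, which the deposited signals do not show. Signals ran from 2.02 to 14.4. Of 22277 probe sets, 62 controls, 1043 with several genes and 2108 without a gene were left out, leaving 19064 probe sets of 11963 genes; each gene was read at its brightest probe set (by the mean of the 12 arrays). 0 columns could not be mapped.

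One limma model (3.58.1, R 4.3.3) with 4 group means was fitted over all genes, with 8 residual degrees of freedom and 3.90 from the prior, and p-values were adjusted by Benjamini-Hochberg; a gene was called at an adjusted p under 0.05. All other probe sets were tested in a second such fit. The number of arrays limits the precision; with 3 against 3, no exact permutation p could go below 0.1. The members and lists were chosen with earlier results of these data known. Some genes of the pathway lists and up to 3 of the SRF and immediate early lists were named, mostly for large called changes. Of the genes from other reports of YAP/TAZ activity, every called one was named. Members, WWTR1, YAP1, SRF and likeness neighbours were named besides. Promoter windows come from RefSeq, GRCh38.p14. The scripts were tested on simulated data. Alternatives covered scaling, filters, probe set choice, moderation, array weights, the actin control, the samples fitted, the replicate number and each array left out. Replicate numbers of the titles were not found to pair the arrays.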

Additional observations from a re-analysis of the deposited data

How the results depend on the processing

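No member changed direction in the 2 siTAZ comparisons. Of 318 results for the 7 called members under the alternatives other than a fold threshold, 315 kept their call. Many of these alternatives leave the estimate itself unchanged, such as filters or leaving out an array of a group not compared. ANKRD1 under erastin lost its call with the actin covariate, and AXL under erastin lost it as given above. Asking in addition for a log2 fold change of at least 0.5 left 3 members fallen and 0 risen in vehicle (7.42% of all genes in either direction), 4 fallen and 0 risen under erastin (7.34%), and 4 fallen and 0 risen for the average effect (7.08%). Leaving out each array in turn gave 6 fallen members in vehicle, 5 to 7 under erastin and 6 to 8 on average, with 1 risen in each. MYOF's average call (adjusted p = 0.043) was lost, among others, after a second quantile normalisation (adjusted p = 0.122), with the mean of its probe sets (0.117), with the actin covariate (0.125), and without any 1 of the arrays (0.0583 to 0.107) other than the third siNT vehicle, the third siNT erastin and the first siTAZ erastin array. AMOTL2's average change (-0.11) passed in 9 of 22 alternatives. The causes were not tested.

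The replicate block, with the title's number as a term, made no call of the 7 members change: ANKRD1 had -0.47 in vehicle (adjusted p = 0.00421, limma) and AXL -0.26 under erastin (adjusted p = 0.0157). It lost MYOF's average call (adjusted p = 0.0611) and gave one to AMOTL2 (0.0383). The numbers were not found to pair the arrays, though a check on 3 arrays a group cannot exclude pairing. Deviations of same-numbered arrays correlated at -0.417 to 0.356 over 18 pairs, 4 above 0.1, and 3 arrays were closest to their own number. Scaling shifted the median of all genes by at most 0.0452, under erastin with each array centred on its median. Counts of the other lists moved by at most 3 genes.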
